A study of Homo sapiens with 5 samples.

Results

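Replication-dependent histone genes were examined in GFP-SAS cells, a line of human tongue squamous cell carcinoma that carries green fluorescent protein. A gene was included where its current symbol began with H1-1 to H1-6, H2AC, H2BC, H3C or H4C, or its annotated symbol with HIST1, HIST2 or HIST3, and where at least 1 probe set named it alone. This gave 64 of the 18239 genes measured, read by 109 probe sets. Taken literally, the pattern also admits H1-10, a linker histone made outside S phase as well, its antisense gene H1-10-AS1 and the pseudogene H2BC20P. The other 61 were 6 H1, 15 H2A, 18 H2B, 10 H3 and 12 H4 genes, 54 of them on chromosome 6, 6 on chromosome 1 and 1 on chromosome 12. A further 8 histone genes were listed only on probe sets naming several genes and have no gene value.

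Cells were exposed for 24 h to 10 nM siAURKA-1 or 10 nM siAURKA-2, which are siRNAs against the Aurora A kinase mRNA, to the non-targeting siRNA siNT, to 100 nM MLN8237, an Aurora A kinase inhibitor also called alisertib, or to its vehicle DMSO. Each of these 5 groups was 1 array of total RNA from 1 cell line, so no difference below could be tested against replicate error and no p-value is given. The log2 difference of AURKA, the target, from siNT was -3.36 on the siAURKA-1 array and -2.64 on the siAURKA-2 array. The authors' log2 values are centred so that the middle of the 5 arrays is 0 for each probe set. They therefore rank arrays and not genes, a silent gene cannot be told from a steady one, and the squamous origin of the cells could not be checked from marker levels. As differences from siNT, 6 measured squamous markers had medians of 0.08 for siAURKA-1 and -0.21 for siAURKA-2, and those of leukocytes, fibroblasts and endothelial cells lay between -0.10 and 0.04. On arrays of bulk RNA, fewer cells in S phase and less histone mRNA per cell cannot be told apart.

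Histones package DNA. H2A, H2B, H3 and H4 form the nucleosome core, and H1 binds the linker DNA between nucleosomes. Replication-dependent histone genes are intronless copies packed in clusters, transcribed together at histone locus bodies when cells replicate their DNA. Their usual mRNAs end in a stem-loop bound by SLBP in place of a poly(A) tail, although some of these genes can also make polyadenylated mRNA, which is seen in differentiated and resting cells. Labelling kits for 3′ in vitro transcription prime on poly(A) tails, and what part of each signal came from stem-loop or polyadenylated mRNA was not tested.

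Many human H2A and H2B genes lie head to head and share the short stretch between their starts. Among the members, 11 such pairs were found with starts within 500 bases, each of 1 H2A and 1 H2B gene. The promoters of the genes that the results turn on are shown first, from RefSeq tables on build GRCh38.p14, as the 250 bases before the annotated start, 5′ to 3′ on the strand of the named gene. Capitals mark 3 motifs on either strand, which are the octamer ATTTGCAT read by OCT1 and its relatives, the CCAAT box CCAAT and the TATA box TATAAA. Matches of different motifs were counted independently, whether or not they overlapped. H2BC5 (chr6:26157871-26158120, plus strand) had the largest difference of all members. The window of H2AC6 (chr6:26123922-26124171, plus strand) holds the 245 bases that it shares with H2BC4. The window of H2AC8 (chr6:26216671-26216920, plus strand) holds the 232 bases shared with H2BC8. H2AC25 (chr1:228457874-228458123, minus strand) faces H2BC26 on chromosome 1. H2BC9 (chr6:26251364-26251613, plus strand) differed in the opposite direction, and H2BC7 (chr6:26199266-26199515, plus strand) lies between the differing genes and stayed near 0.
H2BC5: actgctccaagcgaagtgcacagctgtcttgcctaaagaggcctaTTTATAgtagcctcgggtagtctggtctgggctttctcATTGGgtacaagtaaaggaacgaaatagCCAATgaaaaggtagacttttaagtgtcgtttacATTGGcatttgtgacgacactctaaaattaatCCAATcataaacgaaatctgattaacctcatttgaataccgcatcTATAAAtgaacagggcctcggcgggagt
H2AC6: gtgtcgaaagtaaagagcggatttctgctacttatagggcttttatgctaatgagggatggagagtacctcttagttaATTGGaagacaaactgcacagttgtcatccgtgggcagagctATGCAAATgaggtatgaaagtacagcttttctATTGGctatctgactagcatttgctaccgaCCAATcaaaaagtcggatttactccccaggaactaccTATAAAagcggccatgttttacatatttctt
H2AC8: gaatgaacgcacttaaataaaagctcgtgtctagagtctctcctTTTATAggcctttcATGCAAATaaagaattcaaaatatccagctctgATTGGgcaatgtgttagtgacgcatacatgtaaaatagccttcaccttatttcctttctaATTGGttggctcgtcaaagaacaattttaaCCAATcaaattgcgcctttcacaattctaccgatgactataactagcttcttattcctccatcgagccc
H2AC25: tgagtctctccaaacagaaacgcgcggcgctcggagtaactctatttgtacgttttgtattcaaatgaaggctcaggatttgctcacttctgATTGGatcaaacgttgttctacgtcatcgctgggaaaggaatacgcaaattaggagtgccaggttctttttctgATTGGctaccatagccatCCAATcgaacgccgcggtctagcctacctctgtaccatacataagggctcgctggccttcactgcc
H2BC9: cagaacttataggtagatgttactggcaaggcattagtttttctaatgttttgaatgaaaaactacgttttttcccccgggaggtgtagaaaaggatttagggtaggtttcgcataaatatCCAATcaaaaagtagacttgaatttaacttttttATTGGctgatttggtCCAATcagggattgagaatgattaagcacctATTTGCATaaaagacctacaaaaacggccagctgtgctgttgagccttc
H2BC7: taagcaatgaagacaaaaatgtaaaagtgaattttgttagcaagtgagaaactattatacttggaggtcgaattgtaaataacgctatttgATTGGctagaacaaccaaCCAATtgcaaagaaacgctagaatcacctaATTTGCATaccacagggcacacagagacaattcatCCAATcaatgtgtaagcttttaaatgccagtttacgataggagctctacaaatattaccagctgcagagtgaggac

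The octamer is the known element of H2B promoters. It was present in 14 of 18 H2B and 11 of 14 H2A windows and in 0 of 6 H1, 0 of 8 H3 and 0 of 10 H4 windows, against 1.68% of the 27305 promoters in the table. Windows of the 11 head-to-head pairs overlap, so a motif between the starts was counted for both genes of a pair. The H1 box AAACACA, an element of linker histone promoters, was present in 6 of 6 H1 windows and in no other member, against 4.96% of all promoters. CCAAT was present in all 32 H2A and H2B windows, all 6 H1 and all 8 H3 windows and in 3 of 10 H4 windows, against 32.9% of all promoters. TATAAA was present in 37 of 56 windows, against 11.3%. Of the 6 H2A and H2B genes past 1.5-fold above siNT on the siAURKA-2 array, 4 had the octamer, 6 had CCAAT and 5 had TATAAA. The 4 with the octamer are the head-to-head pairs H2BC4 with H2AC6 and H2BC8 with H2AC8, so they are not independent promoters. Of the other 26, the lower genes H2BC9 and H2AC20 included, 21 had the octamer, 26 had CCAAT and 17 had TATAAA. The windows shown for H2BC5 and H2AC25 hold no octamer, whereas those of H2BC9 and H2BC7 each hold 1.

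Most members differed little between arrays. In 54 of the 64 (84.4%), no difference reached 1.5-fold with either AURKA siRNA against siNT, with MLN8237 against DMSO, or with siNT against DMSO. Over all genes that share was 88.8%. The highest and lowest of the 5 arrays lay at least 1 log2 unit apart for 6 members, H2AC6, H2AC20, H2AC25, H2BC4, H2BC5 and H2BC9, against 4.89% of all genes, and at least 0.5 apart for 11 members, against 21.1%. The first 6 all belong to the H2A and H2B classes. The map of member values shows a few H2A and H2B genes standing out on the siAURKA-2 array and many rows close to 0.

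**Figure D1:**
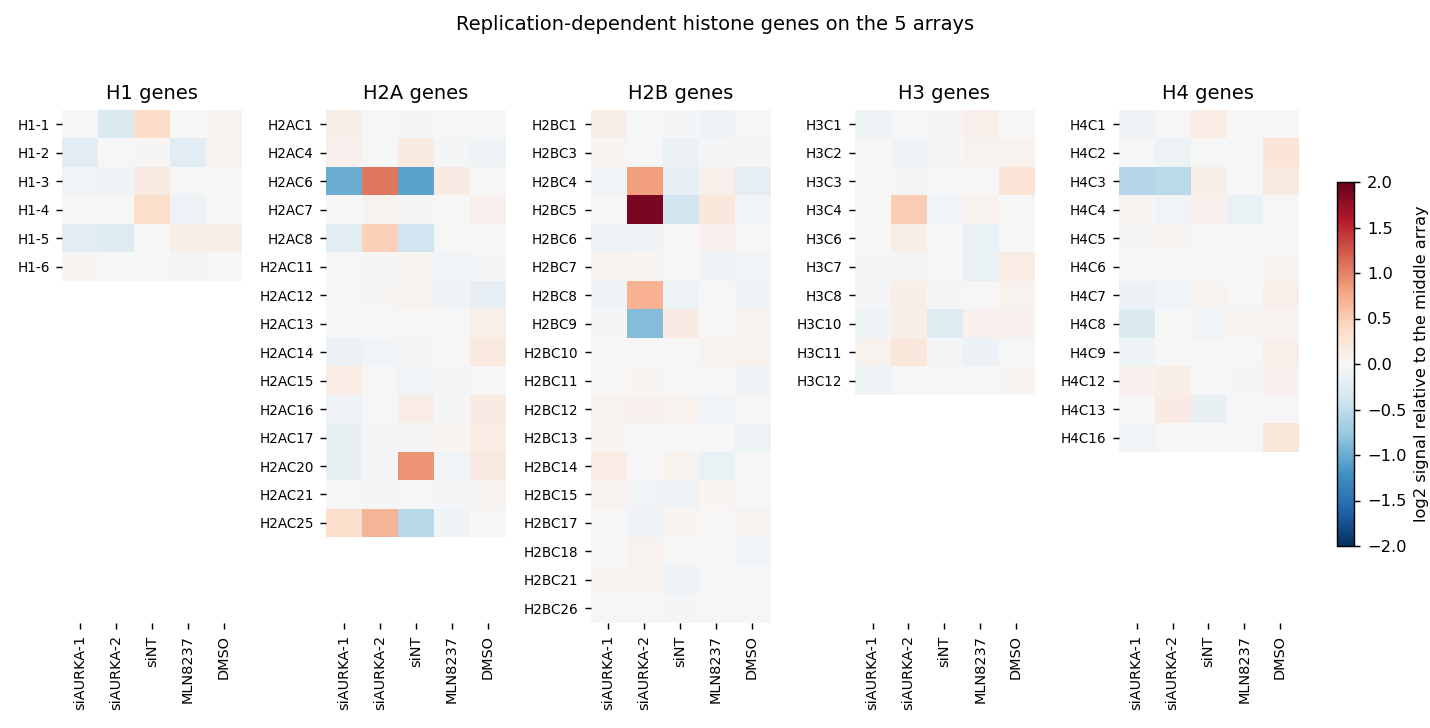
Heat map of the log2 signal of 61 histone genes (rows, by class) on the 5 arrays (columns), each relative to the middle of the 5 arrays, which is 0. H2BC5, H2AC6, H2BC4, H2BC8 and H2AC25 stand out in red on the siAURKA-2 array, and H2BC9 in blue on the same array. H2AC6 is blue on the siAURKA-1 and siNT arrays, and H2AC20 is red on the siNT array.

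With siAURKA-2, a handful of H2A and H2B genes lay far above siNT, while most members were within 1.5-fold of it. At 2-fold, 4 of 64 members were higher, H2BC5, H2AC6, H2AC25 and H2BC4, against 0.389% of all genes, and 1 was lower, H2BC9, against 0.872%. At 1.5-fold, 6 were higher, H2AC8 and H2BC8 included, against 1.96% of all genes, and 4 were lower, H2BC9, H2AC20, H1-1 and H4C3, against 3.11%. In both directions these were 5 members at 2-fold, against 1.26%, and 10 at 1.5-fold, against 5.08%. The median difference over the members was 0.00, as it was over all genes. The median was -0.25 for H1, -0.01 for H2A, 0.02 for H2B, 0.07 for H3 and 0.00 for H4 genes.

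H2BC5, an H2B gene, had log2 values of 0.00 with siAURKA-1, 1.89 with siAURKA-2, -0.37 with siNT, 0.23 with MLN8237 and -0.06 with DMSO. The siAURKA-2 array stood alone above the other 4, and siNT was the lowest. The difference from siNT was 2.27, or 4.81-fold, and 1.95 from DMSO. Its 3 probe sets gave 3.32, 2.27 and 1.68 against siNT and 2.36, 1.89 and 1.58 against DMSO. All thus lay at least 2-fold above either control. The probe set with 3.32 is the only 1 of the 3 without a suffix, and on it siNT lay at -0.96 from DMSO.

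H2AC6, an H2A gene, had values of -0.99 with siAURKA-1, 1.05 with siAURKA-2, -1.07 with siNT, 0.17 with MLN8237 and 0.00 with DMSO. Here siAURKA-1 and siNT were both low, siAURKA-2 was high, and the 2 arrays without transfection lay between. The difference of siAURKA-2 from siNT, 2.11 or 4.33-fold, thus came to 1.05 when taken from DMSO. With siAURKA-1 the gene was level with siNT (0.08) but lay at -0.99 against DMSO. A single probe set, of the kind shared between related transcripts, reads this gene.

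H2BC4 starts 245 bases from H2AC6 on the other strand and encodes H2B. Its values were -0.05 with siAURKA-1, 0.83 with siAURKA-2, -0.20 with siNT, 0.11 with MLN8237 and -0.18 with DMSO. Again siAURKA-2 was the one high array, by 1.03 above siNT and 1.01 above DMSO. The 2 probe sets gave 1.48 and 0.58, and only 1 of them reached 2-fold. Its 2 control arrays were nearly level, and siNT was its lowest array by a narrow margin.

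The head-to-head genes H2BC8 and H2AC8 also lay above siNT with siAURKA-2. H2BC8 had -0.09 with siAURKA-1, 0.70 with siAURKA-2, -0.10 with siNT, 0.00 with MLN8237 and -0.08 with DMSO. H2AC8 had -0.20 with siAURKA-1, 0.48 with siAURKA-2, -0.40 with siNT, 0.00 with MLN8237 and 0.00 with DMSO. H2BC8 was thus 0.81 above siNT and 0.78 above DMSO, while the 0.88 of H2AC8 shrank to 0.48 against DMSO because siNT was low.

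H2AC25, formerly of the HIST3 cluster, was higher than siNT with both siRNAs. Its values were 0.35 with siAURKA-1, 0.68 with siAURKA-2, -0.56 with siNT, -0.09 with MLN8237 and 0.00 with DMSO. The siNT array was the lowest, and differences of 0.91 and 1.24 from siNT became 0.35 and 0.68 from DMSO. Its head-to-head partner H2BC26 was flat, with a difference of 0.02 from siNT with either siRNA. H2AC25 is read by 1 probe set, of the kind shared between related transcripts, and which transcripts it reads was not tested.

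In the other direction, H2BC9 had -0.02 with siAURKA-1, -0.87 with siAURKA-2, 0.17 with siNT, 0.00 with MLN8237 and 0.05 with DMSO. The siAURKA-2 array was alone in being low, by -1.04 against siNT and -0.92 against DMSO. All 3 probe sets were lower, at -0.73, -0.95 and -1.05. All carry a suffix, and whether they read H2BC9 separately from related histone genes was not tested. Only 1 of the 3 passed 2-fold, and with the mean of the probe sets in place of their median H2BC9 was at -0.91, which leaves 4 members past 2-fold with siAURKA-2, all higher.

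**Figure D2:**
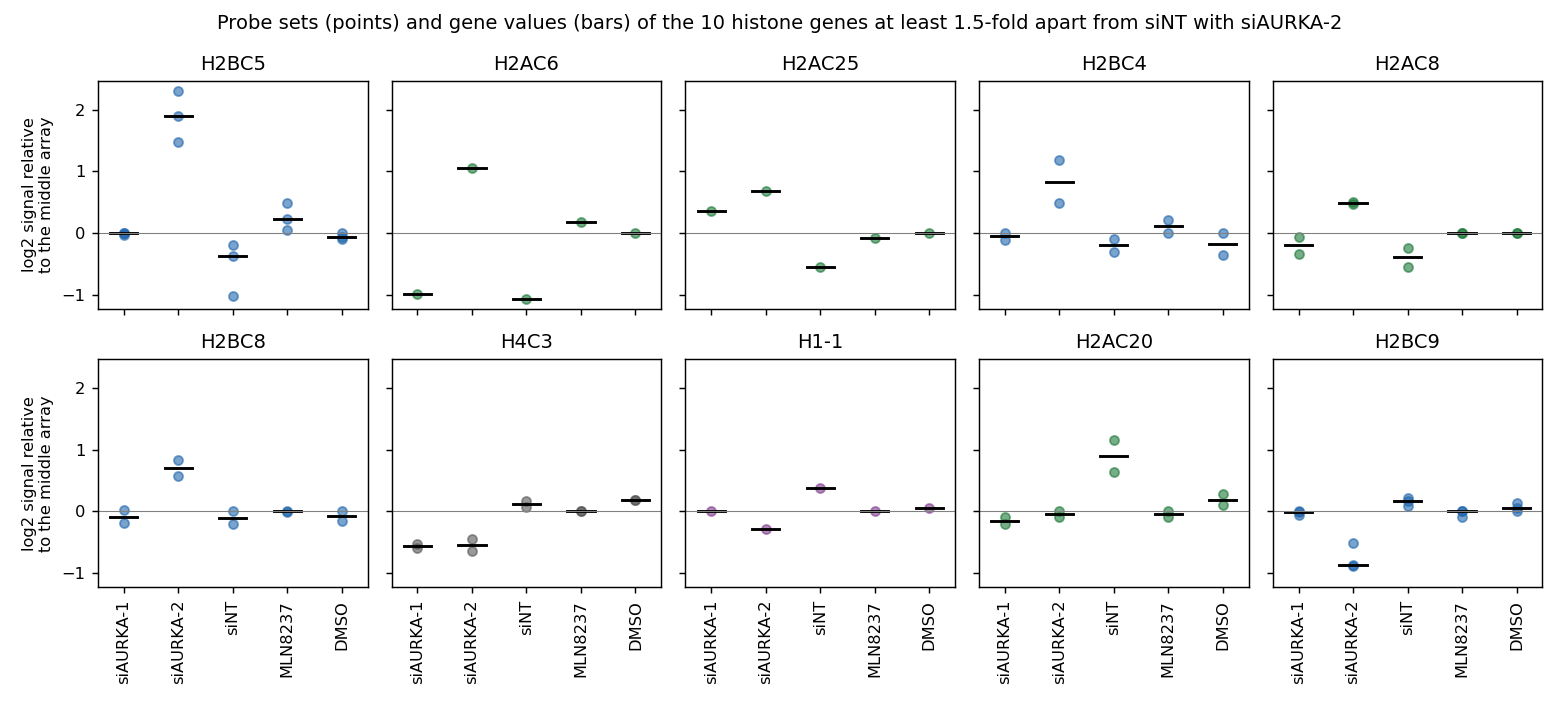
Log2 signal relative to the middle array (y axis) on the 5 arrays (x axis) for the 10 histone genes at least 1.5-fold apart from siNT with siAURKA-2, with a point per probe set and a bar for the gene value. H2BC5 reaches 1.89 with siAURKA-2, H2BC9 -0.87, and H2AC20 is high with siNT alone.

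Of the 8 genes of chromosome 6 at least 1.5-fold from siNT with siAURKA-2, the higher ones were close neighbours and the lower ones were not among them. The 5 that were at least 1.5-fold higher than siNT with siAURKA-2 fell among positions 14 to 25 of the 54 members in chromosome order, a run of 12 genes set after the values were seen. The other 7 of that run, H1-4, H2BC6, H4C4, H3C4, H2AC7, H2BC7 and H4C5, had differences of -0.35 to 0.56. H3C4 was the highest of these. The 3 lower genes, H1-1, H4C3 and H2BC9, held positions 3, 12 and 31. The 42 members of chromosome 6 outside the run ranged from -1.04 to 0.37. Of the 11 head-to-head pairs, both genes passed 1.5-fold in 2, H2BC4 with H2AC6 and H2BC8 with H2AC8, each time upward. H2BC4, H2AC6 and H2BC8 were read only by probe sets with a suffix for shared or cross-hybridising probes. Whether these genes were read separately from related histone genes was not tested. In a further 2 pairs 1 gene passed, and in 7 pairs neither did.

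**Figure D3:**
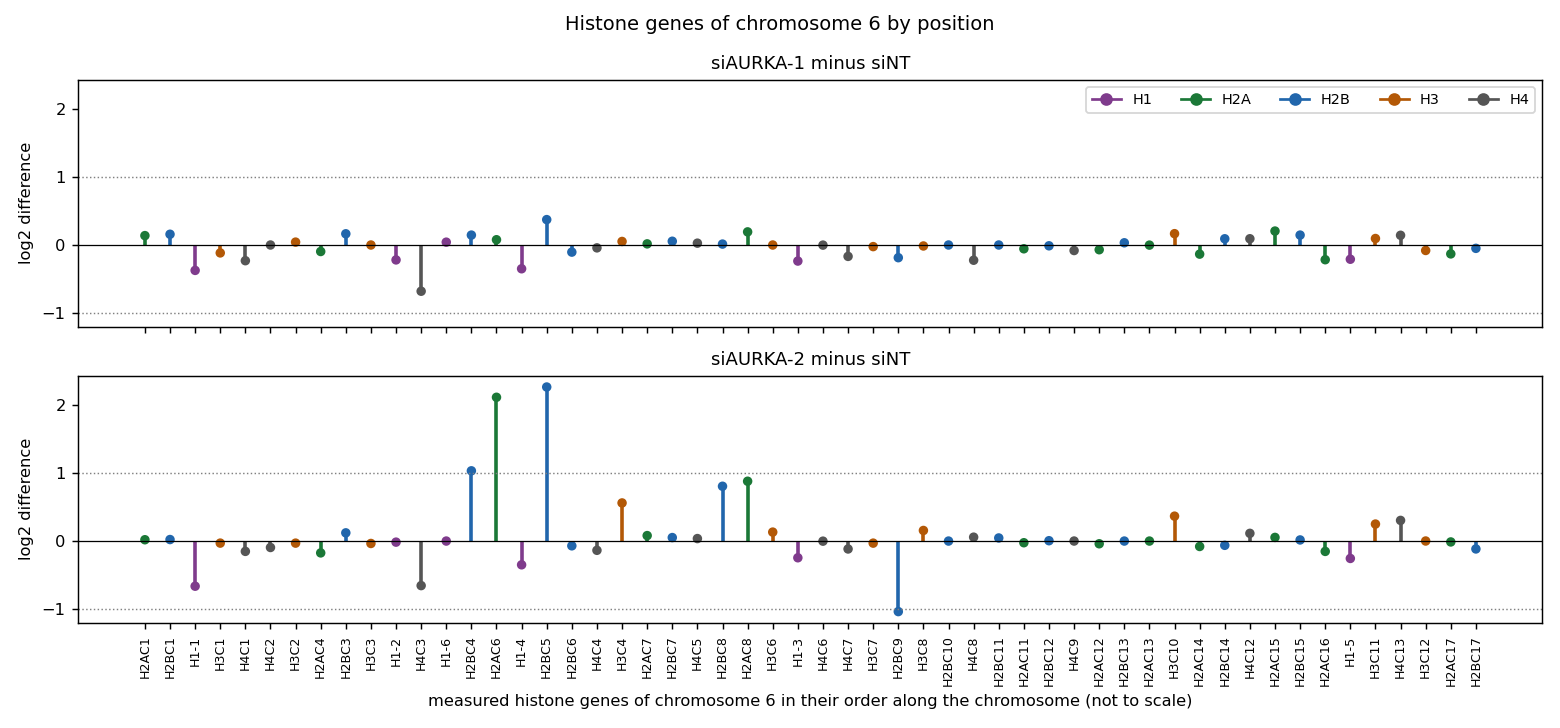
Log2 difference from siNT (y axis) of the 54 measured histone genes of chromosome 6 in their order along the chromosome (x axis, not to scale), with siAURKA-1 above and siAURKA-2 below, coloured by class. With siAURKA-2 the genes from H2BC4 to H2AC8 hold every difference above 0.5 on this chromosome, while the siAURKA-1 values stay between -0.68 and 0.37.

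With siAURKA-1, far fewer members stood apart from siNT. At 2-fold, 0 of 64 were higher, against 0.587% of all genes, and 1 was lower, H2AC20, against 1.38%. At 1.5-fold, 1 was higher, H2AC25, against 2.57%, and 2 were lower, H2AC20 and H4C3, against 4.48%. Both directions together gave 1 member at 2-fold, against 1.96%, and 3 at 1.5-fold, against 7.05%. The median over the members was 0.00, and the class medians were -0.23 for H1, 0.00 for H2A, 0.03 for H2B, 0.00 for H3 and -0.04 for H4.

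H2AC20, an H2A gene of the HIST2 cluster, had values of -0.15 with siAURKA-1, -0.04 with siAURKA-2, 0.90 with siNT, -0.05 with MLN8237 and 0.19 with DMSO. It was high on the siNT array and near level on the other 4. Its differences of -1.05 and -0.94 from siNT were -0.34 and -0.23 from DMSO, and siNT itself lay 0.71 above DMSO. Both probe sets were highest with siNT.

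H4C3, one of the many genes for the core histone H4, was lower with both siRNAs than on any other array. Its values were -0.57 with siAURKA-1, -0.54 with siAURKA-2, 0.11 with siNT, 0.00 with MLN8237 and 0.18 with DMSO. Each group is 1 array, and the share of all genes with both AURKA siRNA arrays lowest was not counted. The differences were -0.68 and -0.66 from siNT and -0.75 and -0.72 from DMSO, and both probe sets lay below siNT, at -0.76 and -0.60 with siAURKA-1 and -0.80 and -0.51 with siAURKA-2. Both H4C3 probe sets carry a suffix for shared or cross-hybridising probes, and which H4 transcripts they read was not tested. Like all siRNA differences from siNT here, the 2 comparisons share the siNT array. The other 11 H4 genes differed from siNT by at most 0.30 with either siRNA, the highest being H4C13. It had 0.00 with siAURKA-1, 0.16 with siAURKA-2, -0.14 with siNT, 0.00 with MLN8237 and 0.00 with DMSO.

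Linker histone genes lay slightly below siNT with both siRNAs, in 5 of 6 genes each, while 42.2% of all genes did so for siAURKA-1 and 42.3% for siAURKA-2. H1-1 had 0.00 with siAURKA-1, -0.29 with siAURKA-2, 0.37 with siNT, 0.00 with MLN8237 and 0.05 with DMSO, which puts it -0.37 and -0.66 from siNT. H1-4, H1-3, H1-2 and H1-5 gave -0.35, -0.24, -0.22 and -0.21 with siAURKA-1 and -0.35, -0.25, -0.02 and -0.26 with siAURKA-2. The testis gene H1-6 was flat, with 0.04 for siAURKA-1, -0.03 for MLN8237 and 0.00 on the other arrays. Against DMSO the H1 medians were -0.05 with siAURKA-1 and -0.07 with siAURKA-2. Some H1 genes stayed further below DMSO. H1-5 was at -0.33 with siAURKA-1 and -0.38 with siAURKA-2, H1-2 was at -0.28 with siAURKA-1, and H1-1 was at -0.34 with siAURKA-2. H1-10, which does not depend on replication, had -0.12 with siAURKA-1, 0.00 with siAURKA-2, -0.03 with siNT, 0.10 with MLN8237 and 0.23 with DMSO, so it lay within 0.09 of siNT with both siRNAs but at -0.35 and -0.23 from DMSO. Its 2 probe sets disagreed for siAURKA-2 against siNT, with 0.21 and -0.16.

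Among the 10 H3 genes, no gene value reached 1.5-fold in any comparison. Single probe sets did, that of H3C8 at -0.79 for siAURKA-1 against siAURKA-2 and that of H3C10 at -0.60 for siNT against DMSO. With siAURKA-1 the gene values ranged, as differences from siNT, from -0.12 for H3C1 to 0.17 for H3C10. With siAURKA-2 the range ran from -0.04 for H3C3 to 0.56 for H3C4. H3C4 had 0.00 with siAURKA-1, 0.51 with siAURKA-2, -0.05 with siNT, 0.06 with MLN8237 and 0.00 with DMSO. H3C10 had -0.09 with siAURKA-1, 0.11 with siAURKA-2, -0.25 with siNT, 0.08 with MLN8237 and 0.09 with DMSO, so siNT was its low array. H3C3 was 0.27 with DMSO, -0.04 with siAURKA-2 and 0.00 on the other arrays, and only DMSO stood out. H3C1 had -0.09 with siAURKA-1, 0.00 with siAURKA-2, 0.03 with siNT, 0.11 with MLN8237 and 0.01 with DMSO. Of these 4, only H3C4 spanned more than 0.5 over the arrays.

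**Figure D4:**
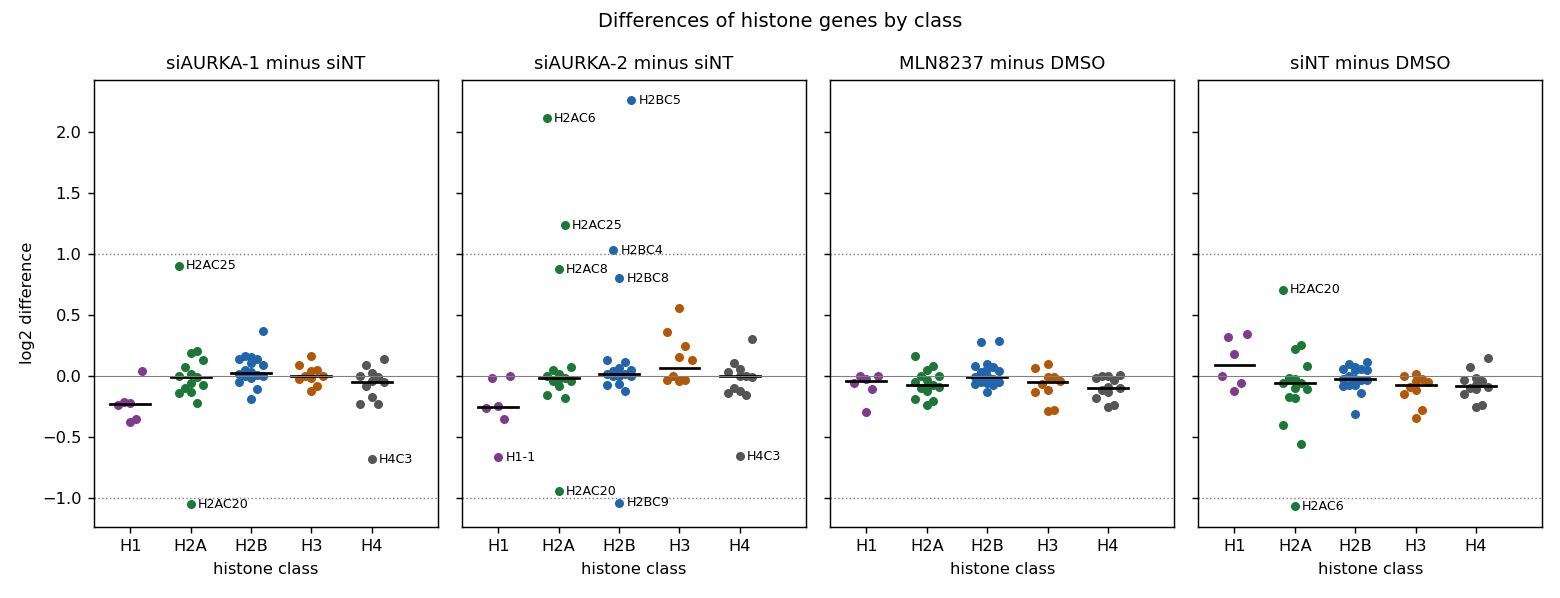
Log2 differences (y axis) of 61 histone genes by class (x axis) in 4 comparisons, with a point per gene, a bar at the class median and dotted lines at 2-fold. With siAURKA-2 single H2A and H2B genes leave a band near 0, and with MLN8237 no point leaves it.

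Compared directly, siAURKA-1 lay below siAURKA-2 by at least 2-fold for 2 of 64 members, H2AC6 (-2.04) and H2BC5 (-1.89), against 1.19% of all genes. No member was 2-fold higher with siAURKA-1, against 0.97%. At 1.5-fold H2BC4 (-0.89), H2BC8 (-0.79) and H2AC8 (-0.69) were also lower, making 5 against 3.99% of all genes, and H2BC9 (0.85) was the 1 higher, against 3.68%. Over both directions the shares of all genes were 2.16% at 2-fold and 7.66% at 1.5-fold. The log2 difference of AURKA itself between these arrays was -0.72.

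MLN8237 left every member within 1.5-fold of DMSO. None of 64 was at least 1.5-fold higher, against 0.367% of all genes, and none lower, against 0.115%, or 0.482% over both directions. At 2-fold none was higher, against 0.0548%, or lower, against 0.011%, or 0.0658% together. The differences ran from -0.29 for H1-2 to 0.29 for H2BC5, with a median of -0.03, and 42 members lay below DMSO and 15 above it, against 46.1% and 38.7% of all genes. H2BC5 and H2BC4 were each 0.29 higher, and H2AC6 was 0.17 higher. Against siNT, H2AC6 was 1.24 and H2BC5 0.60 higher with MLN8237, and H2AC20 was -0.94.

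Between the control arrays, siNT was at least 2-fold lower than DMSO for 1 member, H2AC6 (-1.07), against 0.0658% of all genes, and at least 2-fold higher for none, against 0.23%. At 1.5-fold H2AC20 (0.71) was higher, against 1.53%, and H2AC6 alone was lower, against 0.554%. Over both directions the shares of all genes were 0.296% at 2-fold and 2.08% at 1.5-fold. The members' median was -0.04, with 43 below DMSO and 18 above, against 39.6% and 47.6% of all genes. For H2AC6 and H2AC20 these controls, neither of which targets Aurora A, thus lay more than 1.5-fold apart.

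The choice of control mattered for the count with siRNA. Taken from DMSO, siAURKA-1 put 0 of 64 members past 2-fold, against 1.77% of all genes, and 2 past 1.5-fold, H2AC6 and H4C3, both lower, against 6.84%. Taken from DMSO, siAURKA-2 put 3 past 2-fold, H2BC5, H2AC6 and H2BC4, all higher, against 1.28%, and 7 past 1.5-fold, against 5.21%. The further ones were H2BC8 and H2AC25, higher, and H2BC9 and H4C3, lower. MLN8237 taken from siNT put 1 past 2-fold, H2AC6, against 0.219%, and 3 past 1.5-fold, H2AC6, H2BC5 and H2AC20, against 1.61%.

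Genes that serve histone expression were read beside the members. The first list held 20 measured genes for transcription at histone locus bodies and its cell cycle drivers. At 1.5-fold, siAURKA-1 put 4 of them below siNT, against 4.48% of all genes, and 0 above, against 2.57%. With siAURKA-2, 0 were past it in either direction, against 5.08%. The medians were -0.15 for siAURKA-1 and -0.05 for siAURKA-2. In the account of the gene lists, paired values of a gene are its log2 difference from siNT for siAURKA-1 and then for siAURKA-2. E2F1, an activator of S-phase genes, was at -0.85 with the first siRNA and -0.15 with the second. CDK2, the kinase that drives S phase, gave -0.79 and -0.42, CCNA2, encoding its partner cyclin A, gave -0.60 and -0.50, and CCNE2, encoding its partner cyclin E2, gave -0.61 and 0.12. NPAT, the histone locus body coactivator, stayed closer to siNT, at -0.17 with either siRNA, as did CASP8AP2, encoding FLASH, at -0.20 and -0.06. E2F3 (0.34 and -0.04), TRRAP (0.19 and 0.18) and CREBBP (0.04 and 0.10), the last 2 coactivators of transcription, were the highest of the list by the mean of both siRNAs.

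Of 26 measured genes for 3′ processing and decay of histone mRNA, 1 was at least 1.5-fold higher and 0 lower with siAURKA-1, namely TENT4B, and 0 were higher and 1 lower with siAURKA-2. The shares of all genes were 2.57% higher and 4.48% lower with siAURKA-1, and 1.96% higher and 3.11% lower with siAURKA-2. The gene lower with siAURKA-2 was ERI1, the exonuclease that trims and degrades the histone stem-loop. It had 0.14 with siAURKA-1, -1.01 with siAURKA-2, 0.14 with siNT, 0.00 with MLN8237 and 0.05 with DMSO, so that siAURKA-2 alone was low, by -1.15 from siNT. SLBP, the stem-loop binding protein, had -0.26 with siAURKA-1, -0.47 with siAURKA-2, 0.00 with siNT, 0.07 with MLN8237 and 0.30 with DMSO, and was lowest on both AURKA siRNA arrays. EXOSC10, a nuclear exosome subunit, gave -0.35 and -0.50 from siNT, and TUT4, a terminal uridylyltransferase, gave -0.55 and -0.31. Against DMSO, EXOSC10 was at -0.22 and -0.37, and TUT4 was at -0.26 and -0.02. TENT4B, a poly(A) polymerase, was at 0.71 and -0.12 from siNT, but siNT was itself at -0.63 from DMSO, and against DMSO TENT4B was at 0.08 and -0.75. LSM11, of the U7 small nuclear ribonucleoprotein that cleaves histone pre-mRNA, gave 0.29 with each against siNT and -0.02 with each against DMSO, and MIF4GD, which binds SLBP, gave 0.15 and 0.18.

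Replication-independent and variant histones, whose mRNAs are polyadenylated in most cases, had 16 measured genes, and their medians were 0.00 for siAURKA-1 and 0.01 for siAURKA-2. At 1.5-fold, 2 were lower with siAURKA-1, H2AZ1 (-0.79) and H2AZ2 (-0.73), both encoding H2A.Z, against 4.48% of all genes, and 0 were past it in either direction with siAURKA-2, against 5.08%, where they gave -0.31 and -0.53. MACROH2A2 gave -0.42 and -0.22. H2AX, the H2A form phosphorylated at DNA breaks, gave -0.41 and 0.18. The H3.3 genes H3-3A (0.17 and 0.07) and H3-3B (-0.02 and 0.13) were near level. By the mean of both siRNAs, the highest of the list were H3-3A, H1-9P (0.06 and 0.13) and H1-8 (0.04 and 0.12). CENPA went in opposite directions, at -0.34 and 0.48.

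Genes of S phase mostly lay below siNT with both siRNAs, whereas the members' medians stayed at 0.00. The 40 genes of S phase and DNA replication had medians of -0.68 for siAURKA-1 and -0.35 for siAURKA-2 against siNT, -0.25 with MLN8237 and -0.28 with siNT against DMSO. With siAURKA-1, 40 of 40 lay below siNT and 27 were at least 1.5-fold lower, and with siAURKA-2, 36 lay below and 12 were at least 1.5-fold lower. Over all genes 42.2% and 42.3% lay below siNT, and 4.48% and 3.11% were at least 1.5-fold lower. Against DMSO the number at least 1.5-fold lower was 32 with siAURKA-1, against 3.57% of all genes, and 24 with siAURKA-2, against 2.55%. The lowest by the mean of both were DTL (-1.47 and -1.23), POLE2 (-1.66 and -0.31) and MCM10 (-1.38 and -0.59), and the highest MCM5 (-0.23 and 0.00), POLE (-0.11 and -0.07) and RFC4 (-0.09 and -0.04). For the same comparisons the histone members had medians of 0.00, 0.00, -0.03 and -0.04. With siAURKA-2, the members at least 1.5-fold from both controls were H2BC5, H2AC6, H2BC4, H2BC8 and H2AC25, all higher, and H2BC9 and H4C3, both lower. Whether cell cycle position, polyadenylation or probe behaviour contributes to these values was not tested.

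**Figure D5:**
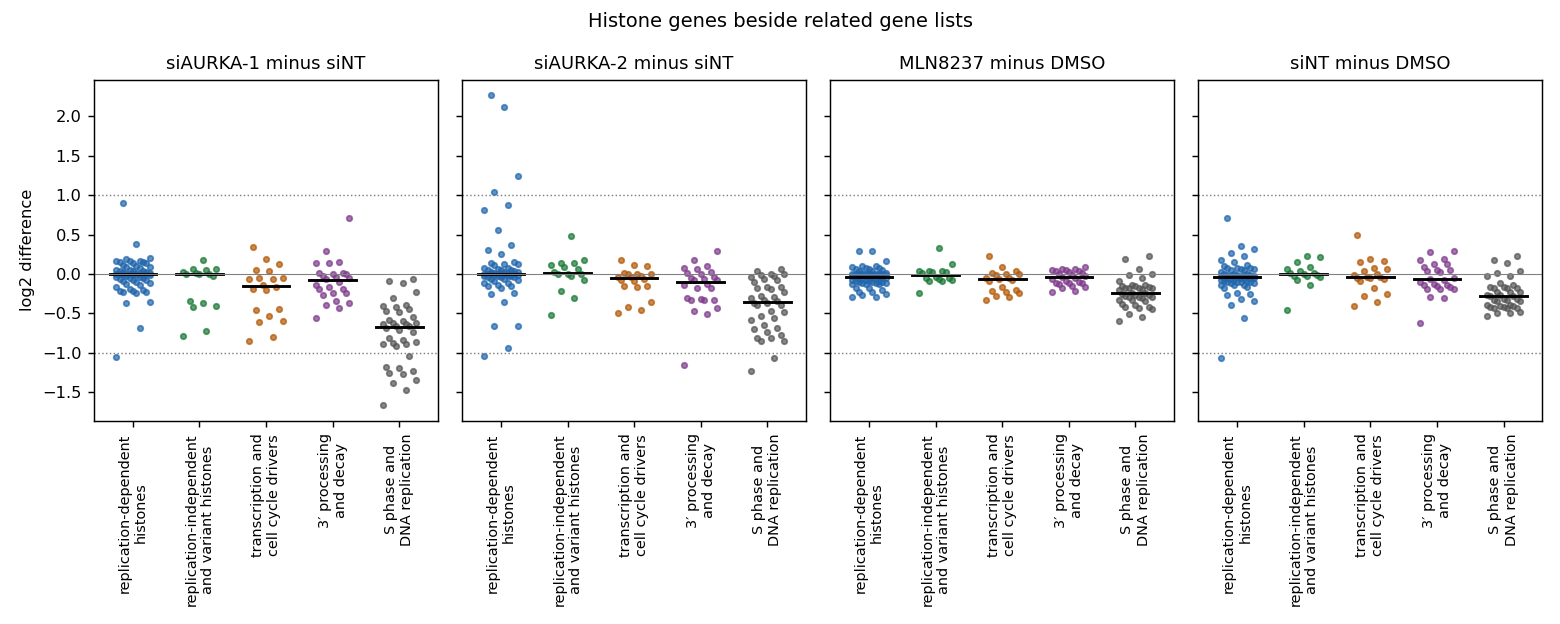
Log2 differences (y axis) of 61 replication-dependent histone genes, 16 other histone genes, 20 transcription and cell cycle drivers, 26 genes for 3′ processing and decay and 40 S-phase genes (x axis) in 4 comparisons, with a point per gene and a bar at the median. The S-phase medians are -0.68, -0.35, -0.25 and -0.28, whereas the histone medians stay within 0.04 of 0.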

How the data were processed

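Biotin-labelled RNA was made from 10 ng of total RNA with a GeneAtlas 3′ IVT Express kit, per the labels' protocols. The submitters' processing notes name RMA, a method that corrects background, normalizes quantiles and summarises probes. The authors' values were read as log2 signal. Software, log base and any centring step are not stated in the sources used, but the median over the arrays was exactly 0 in all 49386 probe sets. Probe sets naming 1 gene (45259) were assigned by Entrez number to current symbols, and the median over its probe sets stood for a gene (33 members had 1, 31 had several). Differences were taken within the table, and genes counted at 2-fold and 1.5-fold beside all 18239 genes. The counting was tested on simulated data. Among members with several probe sets, 15 to 19 per comparison had one that did not share the gene's direction. The number of arrays limits the precision.

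Members and gene lists were chosen with earlier results of these data known. Values on all arrays were given for members at least 2-fold apart in any comparison, the highest and lowest of each class with each siRNA, and differences, per list, for the 3 highest and 3 lowest by the mean of both siRNAs. NPAT, SLBP, CASP8AP2, H2AX, H2AZ1, H3-3A, H3-3B and H1-10 were named in any case, and a further gene of that rule is not reported here. Other genes were named after their values were seen. Alternatives were the other control, array centring, the mean of probe sets, probe sets without a suffix, the 5 classes alone, and 1.5-fold and 3-fold thresholds. Python 3.11.15, pandas 2.3.3 and numpy 2.4.6 were used.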

Additional observations from a re-analysis of the deposited data

How the results depend on the processing

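With 1 array per group, no setting can show whether a difference would recur. No paired analysis was possible because each group has 1 array. The number of members past 2-fold with siAURKA-1 was 1 against siNT, 0 against DMSO, and 2 with only probe sets that carry no suffix (48 members measurable). It was 3 at 1.5-fold and 0 at 3-fold. With siAURKA-2 it was 5 against siNT, 3 against DMSO (H2BC5, H2AC6 and H2BC4), and 3 without suffixed probe sets, namely H2BC5 (3.32), H2AC8 (1.04) and H2AC20 (-1.16), since H2AC6, H2AC25, H2BC4 and H2BC9 have no value there. The mean of probe sets gave 4, without H2BC9 (-0.91). It was 10 at 1.5-fold and 2 at 3-fold. With MLN8237 it was 0 against DMSO and 1 against siNT. For siNT against DMSO it was 1, and 0 without suffixed probe sets, 2 at 1.5-fold and 0 at 3-fold. For siAURKA-1 against siAURKA-2 it was 2, and 1 without suffixed probe sets and 6 at 1.5-fold. Single members that dropped below 1.5-fold did so against DMSO: H2AC20 (-0.34 and -0.23), H2AC25 with siAURKA-1 (0.35), H1-1 (-0.34) and H2AC8 (0.48), both with siAURKA-2. No difference of at least 1.5-fold in the main comparisons changed direction under the alternatives run. The main comparisons were each AURKA siRNA from siNT, MLN8237 and siNT from DMSO, and the AURKA siRNAs from each other. Differences that were smaller in the main comparisons did change direction between controls, and were not followed further. An example is H2AC6 with siAURKA-1, at 0.08 from siNT but -0.99 from DMSO, which is past 1.5-fold. Centring the arrays changed no value, since the median gene was at 0 on every array. Medians over the members moved by less than 0.07, the median size of the difference between siNT and DMSO over all genes, under every alternative run.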

Other observations

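Some probe sets list several histone genes and were left out of the gene values, since the gene they read cannot be told. There were 8 of them. The 2 probe sets that list H2AC18 and H2AC19 together were higher with both AURKA siRNAs than on the other 3 arrays. One had 0.88 with siAURKA-1, 1.13 with siAURKA-2, -0.25 with siNT, 0.00 with MLN8237 and 0.00 with DMSO. The other had 0.89 with siAURKA-1, 0.89 with siAURKA-2, -0.37 with siNT, 0.00 with MLN8237 and -0.18 with DMSO. Both therefore lay at least 1.13 above siNT, and at least 0.88 above DMSO, with either siRNA.

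The probe set that lists H4C11 and H4C12 was lower with both siRNAs, at -0.57 for siAURKA-1 and -0.66 for siAURKA-2, against 0.00 with siNT, 0.11 with MLN8237 and 0.50 with DMSO. H4C12 on its own probe sets did not show this, at 0.09 and 0.11 from siNT. The 2 probe sets that list H4C14 and H4C15 disagreed for MLN8237 against DMSO, with 0.94 and -0.44.

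H2BC21 is a member whose gene value hides a probe set that differed. One of its 3 probe sets was at 0.84 for siAURKA-1, 0.38 for siAURKA-2, -0.19 for siNT, 0.00 for MLN8237 and -0.13 for DMSO, so that it lay 1.03 and 0.57 above siNT. The other 2 lay at most 0.11 above siNT with either siRNA, and the gene values differed by 0.11 and 0.13. Testis-type histone genes H2AC1, H2BC1 and H1-6, which were measured like the rest, differed from siNT by at most 0.16 with either siRNA.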
